A study of Rattus norvegicus with 24 samples.

Results

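The isoflurane arm (ANE) at 1 hour is set here against untreated collagen-induced arthritis (CIA) in the microRNAs (miRNAs) of rat peripheral blood mononuclear cells (PBMC). Its members are 4 of the 24 arrays of the series, chosen by the sample titles alone: 2 arrays of ANE at 1 hour and 2 arrays of CIA before therapy. All animals were female Wistar rats, and both groups carried arthritis raised by immunisation with bovine type II collagen. ANE animals were anaesthetised with isoflurane at blood sampling and got no other treatment, while the placebo arm (PLA) got saline injections and, like the methotrexate (MTX) and mechanical stimulation (MS) arms, was sampled under ether. The anaesthetic used for CIA before therapy, the ages and whether an array held RNA of 1 animal or of a pool are not given in the sources used here. P-values therefore measure only the spread between these samples. Blood was drawn in full and the animals were then killed, so that the groups are different animals. ANE at 1 hour differed from CIA in the anaesthetic arm and in time, and these cannot be told apart in this comparison. The other 10 groups, each of 2 arrays, were healthy animals (NOCIA) before therapy, NOCIA, MS, MTX and PLA at both 1 hour and 34 days, and ANE at 34 days.

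A miRNA is a short RNA that guides Argonaute proteins to messenger RNAs and lowers their translation and stability. Most of the pairing is made by its seed, bases 2 to 8 from the 5′ end, so that miRNAs of one seed share many possible targets. The amount of a miRNA in PBMC depends strongly on which blood cells are present, since lymphocytes, myeloid cells, red cells and platelets each have abundant miRNAs of their own. In bulk samples, fewer cells of a type and less of a miRNA per cell cannot be told apart. Of 677 rat miRNAs on the array, 210 were detected on at least 3 of the 24 arrays and were tested, and 143 of these were detected on all 4 arrays compared. On the 4 arrays compared, between 157 and 190 miRNAs were detected, and the summed intensity of the detected miRNAs was 206588 and 267934 on the ANE arrays against 167322 and 163860 on the CIA arrays. The blood cell miRNAs miR-142-3p, miR-150 and miR-223 were detected on all 24 arrays. Levels are given as log2 of the scaled total intensity, with a floor of 2.53 below which no level is measured, and levels of different miRNAs are not compared with each other. ANE at 1 hour lay on slide 1 with MS, MTX and PLA at 34 days, and CIA on slide 2 with NOCIA before therapy and NOCIA and ANE at 34 days. The labels of NOCIA at 34 days conflict on the time, and the titles were followed. Slide and group cannot be told apart in a fit, and values of the other groups of each slide are given beside the results.

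The mature sequences of the miRNAs on which the comparison turns are printed below from RefSeq (build GRCr8), 5′ to 3′, with the seed in capitals. All 16 names looked up were matched, and an array name without an arm was read as the main arm. The first pair are the only miRNA called and the main miRNA of the myeloid list, at chr18:61028831-61028852 and chrX:65151450-65151470 (plus strand).
miR-122-5p: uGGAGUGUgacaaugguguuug
miR-223-3p: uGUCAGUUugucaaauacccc
The next 3 share the seed of the miR-34 family. miR-34b and miR-34c differ at 2 of 23 positions, neither in the seed, and lie together within chr8:60306091-60306692 (minus strand, inside the gene Hoatz), while miR-34a lies on chromosome 5.
miR-34b-5p: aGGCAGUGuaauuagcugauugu
miR-34c-5p: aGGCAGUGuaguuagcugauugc
miR-34a-5p: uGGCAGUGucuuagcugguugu
The following 5 share the seed of the miR-15/16 family. miR-195 and miR-497 lie at chr10:55450171-55450581 (plus strand, in no other annotated gene), miR-15b and miR-16 on chromosome 2 inside Smc4, and miR-322 on chromosome X.
miR-195-5p: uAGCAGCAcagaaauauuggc
miR-497-5p: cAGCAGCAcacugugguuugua
miR-15b-5p: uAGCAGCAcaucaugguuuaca
miR-16-5p: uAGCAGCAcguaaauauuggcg
miR-322-5p: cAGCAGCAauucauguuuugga
Both arms of the miR-342 hairpin, inside Evl at chr6:133329655-133329753 (plus strand), have seeds of their own, and the 4 members of the miR-181 family share one.
miR-342-3p: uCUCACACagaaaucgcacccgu
miR-342-5p: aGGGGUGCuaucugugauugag
miR-181a-5p: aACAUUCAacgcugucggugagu
miR-181b-5p: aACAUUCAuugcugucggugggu
miR-181c-5p: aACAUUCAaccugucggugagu
miR-181d-5p: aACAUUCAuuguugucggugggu
Members of a family that differ at few positions can bind each other's probes on an array, and how much they did so here was not tested.

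Across all miRNAs the comparison gave 1 call, miR-122, which was higher in ANE at 1 hour. With limma and Benjamini-Hochberg adjustment over the 210 miRNAs tested, this is 0.476% of them. Before adjustment, 38 miRNAs (18.1%) had a p under 0.05, of which 29 were higher (13.8%) and 9 lower (4.29%), and of these 27 and 5 were detected on all 4 arrays. That split depended on the scaling. It was 16 higher and 1 lower without scaling, 6 and 6 with the 75th percentile over all miRNAs, 16 and 17 with the median, and 11 and 22 with quantile normalization. None of the 32 passed the adjustment, with adjusted p-values from 0.0922 to 0.263. The threshold in the study's methods asks for a change of more than 2-fold at p below 0.05 before adjustment, and it was applied to miRNAs detected on all 4 arrays. It was passed by 9 of 143 miRNAs (6.29%), 7 higher (4.90%) and 2 lower (1.40%). The same split was 11 and 0 without scaling, 1 and 1 with the percentile over all miRNAs, 4 and 2 with the median, and 1 and 2 with quantile normalization. Both ANE arrays lay above both CIA arrays for 76 miRNAs (36.2%) and below them for 40 (19.0%). The median log2 difference over the 210 miRNAs was 0.11, and it was 0.54 without scaling between arrays, so directions are read against that shift. Without scaling, each difference between miRNAs above the floor was 0.47 higher. With the percentile over all miRNAs the shift was -0.12, and with the median it was -0.079. None of the 32 differences above was small enough to turn its sign under these shifts. Only quantile normalization could have turned 1, and under it none turned. With 2 arrays against 2, an exact permutation test of a single miRNA cannot go below p = 0.333, and limma's shared estimate of the spread is used throughout.

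**Figure D1:**
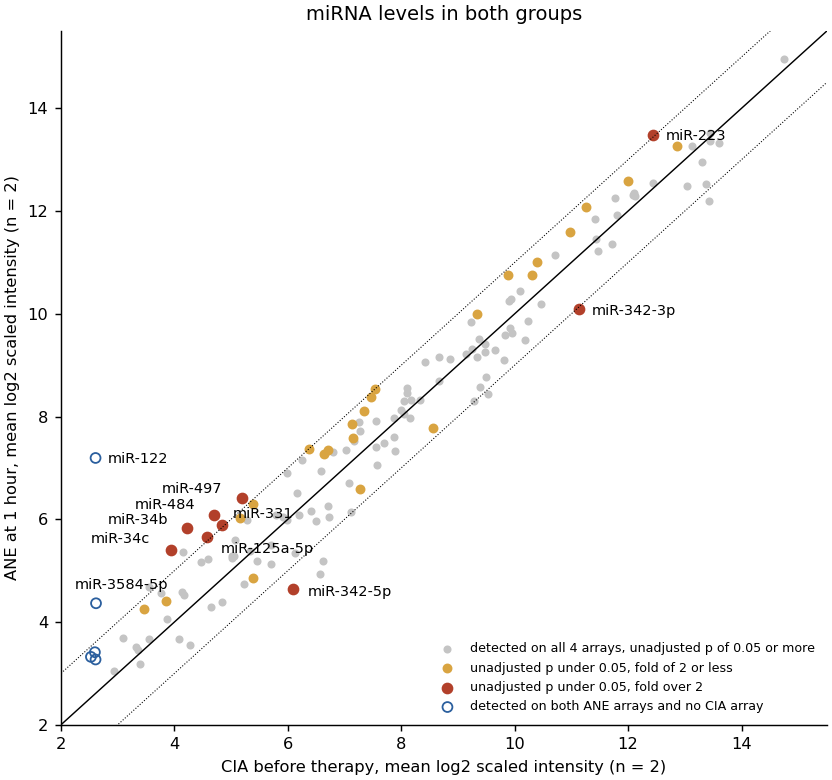
Mean log2 scaled intensity of each miRNA in CIA before therapy (horizontal axis) and in ANE at 1 hour (vertical axis), 2 arrays a group, with the solid line at equality and the dotted lines at a fold of 2. Most of the 143 miRNAs detected on all 4 arrays lie between the dotted lines, 7 lie above them and 2 below them at an unadjusted p under 0.05, and miR-122 stands apart among the 5 open circles, whose position on the horizontal axis is no measured level.

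miR-122 makes up most of the miRNA of liver cells and is used as a marker of liver RNA in blood. It was detected at 8.96 on the first ANE array and 5.43 on the second, and on neither CIA array. The ANE arrays were thus both above the CIA arrays but far from each other. The difference was at least 22.1-fold, counting the CIA arrays at the lowest signal that they could detect. The fitted log2 difference, which rests on undetected CIA values and is no bound, was 4.58 (SE 0.81, adjusted p 0.0132 in limma). It was 3.42 with the mean spot signal, 2.98 with the deposited log2 table and 1.29 with normexp. The spread behind that SE is shared by all groups. Both arrays left miR-122 undetected in CIA, MS and MTX at 1 hour, and NOCIA, MS and PLA at 34 days. Such values lie at or near the floor and add little spread, while the SD of the ANE arrays was 2.50. With only the arrays compared, adjusted p in limma was 0.210. Among the other groups, miR-122 was at 7.76 and 7.73 in NOCIA before therapy, the highest group, and at 3.69 and 4.26 in PLA at 1 hour. It was detected on 9 of the 24 arrays in all, and on 1 of 6 arrays of the other groups that shared the slide of ANE at 1 hour. Of the other members of the liver list, miR-192 was at 5.35 and 5.14 in ANE against 4.78 and 5.26 in CIA, and miR-194 at 3.92 and 4.18 against 3.94 and 3.80. Their arrays overlapped between the groups, and miR-122* was detected on no array. The call was lost without the first CIA array (adjusted p 0.0627) and without the second (0.156), and with 6 other settings of the processing. It was kept without either ANE array, at least 6.51-fold without the first and at least 75.2-fold without the second.

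The 7 miRNAs past the study's threshold that were higher in ANE at 1 hour were miR-223, miR-34b, miR-34c, miR-125a-5p, miR-497, miR-484 and miR-331. miR-223, an abundant miRNA of granulocytes and monocytes, was at 13.31 and 13.67 in ANE and at 12.26 and 12.60 in CIA. Its difference of 1.06 (SE 0.25, adjusted p 0.0922 in limma) was the closest to a call among miRNAs detected on all 4 arrays. ANE at 1 hour was the highest of the 12 groups for miR-223 and CIA the lowest. The other groups of slide 1 had a mean of 13.09 and those of slide 2 of 12.78, and with each group set against them the difference was 0.75 (adjusted p 0.621). The myeloid list held 1 more measured member, miR-27a, at 11.98 and 11.72 against 11.41 and 11.41, a difference of 0.44 (SE 0.22).

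miR-34b and miR-34c, which are known as targets of p53 and as abundant miRNAs of ciliated epithelia, had the largest differences past that threshold. miR-34b was at 6.29 and 5.37 in ANE and at 4.50 and 3.96 in CIA, a difference of 1.60 (SE 0.51). miR-34c was at 5.91 and 4.89 against 4.31 and 3.55, a difference of 1.47 (SE 0.62). For both, the ANE arrays lay above the CIA arrays, and the ANE mean was the highest of the 12 groups. MTX at 1 hour came next, at 5.26 and 5.75 for miR-34b and at 4.34 and 5.48 for miR-34c, and these values overlapped those of ANE at 1 hour. The other groups of slide 1 had a mean of 3.59 for miR-34b and 3.14 for miR-34c, below CIA. miR-34a, with the same seed but another locus, was at 7.77 and 8.18 in ANE and at 8.20 and 8.12 in CIA. Its groups overlapped, and its difference was -0.18 (95% interval -0.54 to 0.18), which was 0.29 without scaling. miR-449a, also of this family, was detected at 4.81 on the second ANE array and on none of the other 3. Adjusted p was 0.248 for miR-34b and 0.263 for miR-34c.

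**Figure D2:**
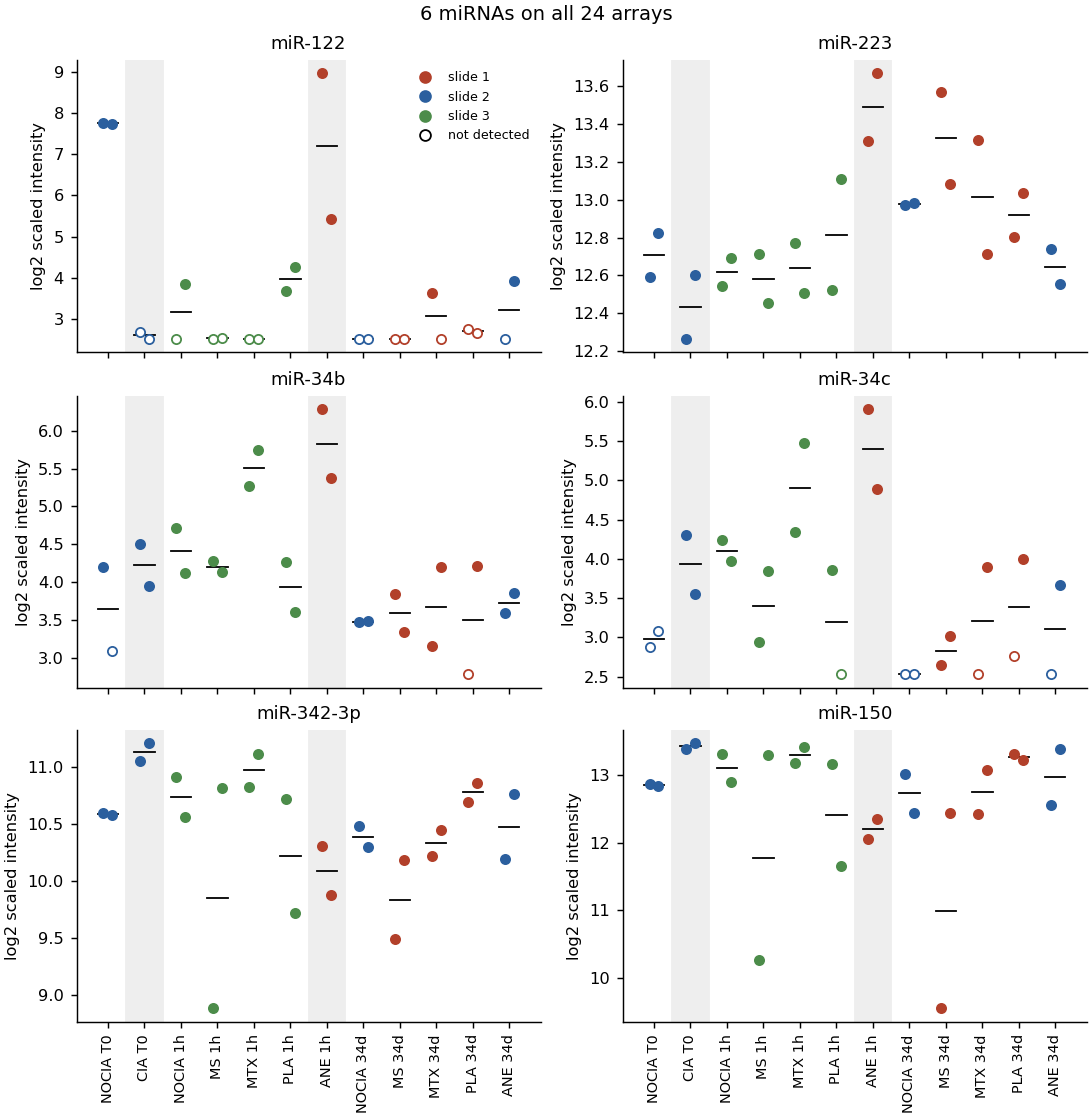
Log2 scaled intensity of 6 miRNAs in the 12 groups, with 1 point per array, coloured by slide, open where the miRNA was not detected, and a bar at the mean of each group. CIA before therapy and ANE at 1 hour are shaded. miR-122 is high in NOCIA before therapy and in ANE at 1 hour, miR-34b and miR-34c are highest in ANE and MTX at 1 hour, and the CIA arrays are the highest group for miR-342-3p and miR-150.

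In the miR-15/16 family, whose members restrain the cell cycle, members that share a seed differed in direction. miR-497 was at 6.55 and 6.26 in ANE and at 5.20 and 5.16 in CIA, a difference of 1.22 (SE 0.51). Its neighbour miR-195 was at 7.44 and 7.26 against 6.72 and 6.71, a difference of 0.63 (SE 0.18). Both had ANE arrays above CIA arrays. miR-15b was lower, at 12.81 and 13.09 against 13.35 and 13.27, and miR-16 overlapped, at 13.15 and 13.52 against 13.76 and 13.43. Their differences of -0.36 and -0.26 turned positive, to 0.11 and 0.21, without scaling between arrays. miR-322 was at 7.07 and 7.62 against 7.01 and 7.06. Of the 5 members, 3 were higher and 1 lower without overlap, where 36.2% and 19.0% of all miRNAs were, and the family's median difference was 0.31 beside 0.11 over all miRNAs.

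The remaining 3 higher miRNAs past the study's threshold were miR-125a-5p, miR-331 and miR-484. miR-125a-5p was at 5.79 and 5.52 in ANE and at 4.36 and 4.78 in CIA, a difference of 1.09 (SE 0.43). miR-331 was at 6.28 and 5.49 against 4.76 and 4.91, a difference of 1.05 (SE 0.47). miR-484 was at 7.29 and 4.89 against 4.74 and 4.66. Its difference of 1.39 (SE 0.61) came from the first ANE array, and it was 0.19 without that array and 2.60 without the second. Just under a fold of 2 stood miR-143, a miRNA of smooth muscle and other mesenchymal cells, at 9.09 and 7.98 against 7.54 and 7.55. The other 19 higher miRNAs detected on all 4 arrays had differences from 0.41 (miR-26a) to 0.98 (miR-326). Among them was miR-210, the miRNA most regularly induced by low oxygen, at 8.17 and 8.58 in ANE against 7.47 and 7.45 in CIA, a difference of 0.91 (SE 0.38). Also among them were miR-128, miR-130a, miR-191 with its hairpin neighbour miR-425, miR-17-5p, and miR-23a with miR-24.

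The lower miRNAs were led by those of lymphocytes. miR-342-5p was at 4.62 and 4.67 in ANE and at 6.08 and 6.10 in CIA, a difference of -1.44 (SE 0.65). The other arm of its hairpin, miR-342-3p, was at 10.30 and 9.88 against 11.05 and 11.21, a difference of -1.04 (SE 0.48). Both arms were lower on both ANE arrays. miR-150, which is abundant in mature B and T cells and restrains the factor Myb, was at 12.06 and 12.35 against 13.38 and 13.47. The difference of -1.22 (SE 0.89) had an unadjusted p of 0.192 in limma. The spread behind it is shared by all groups, and the MS arrays were at 10.26 and 13.29 at 1 hour and at 9.55 and 12.43 at 34 days. miR-150*, from its other arm, was at 4.72 and 5.66 against 6.58 and 6.67. miR-181a, known for setting the sensitivity of T cell receptor signalling, was at 9.37 and 9.61 against 10.02 and 10.33, and miR-181b at 6.64 and 6.52 against 7.07 and 7.49.

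All 6 measured members of the lymphocyte list were lower without overlap, where 19.0% of all miRNAs were, and 3 of them had an unadjusted p under 0.05. None was called. The median difference of the list was -1.13 beside 0.11 over all miRNAs, and its summed level was 12.63 and 12.79 in ANE against 13.78 and 13.91 in CIA. CIA was the highest of the 12 groups for each of the 6 members. The 6 members are not independent. miR-150 with miR-150* and miR-342-3p with miR-342-5p are each the arms of a single hairpin, and miR-181a and miR-181b share a seed. The list was chosen with earlier results of these data known. The 6 members stayed below 0 with quantile normalization, against the other groups of each slide and with the red cell level as a covariate. The constant shifts of the remaining scalings were too small to turn their signs. Against the groups of each slide, 0 of 6 had an unadjusted p under 0.05 in limma. The remaining miR-181 miRNAs, which share a locus on chromosome 19, differed the other way. miR-181c was at 7.90 and 7.81 in ANE against 7.10 and 7.17 in CIA, and miR-181d at 8.14 and 8.08 against 7.26 and 7.43. Both were higher without overlap, by 0.72 (SE 0.30) and 0.77 (SE 0.32). The other 2 lower miRNAs detected on all 4 arrays were miR-361, at 7.68 and 7.90 against 8.52 and 8.62, and miR-532-3p, at 4.86 and 4.85 against 5.40 and 5.39.

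**Figure D3:**
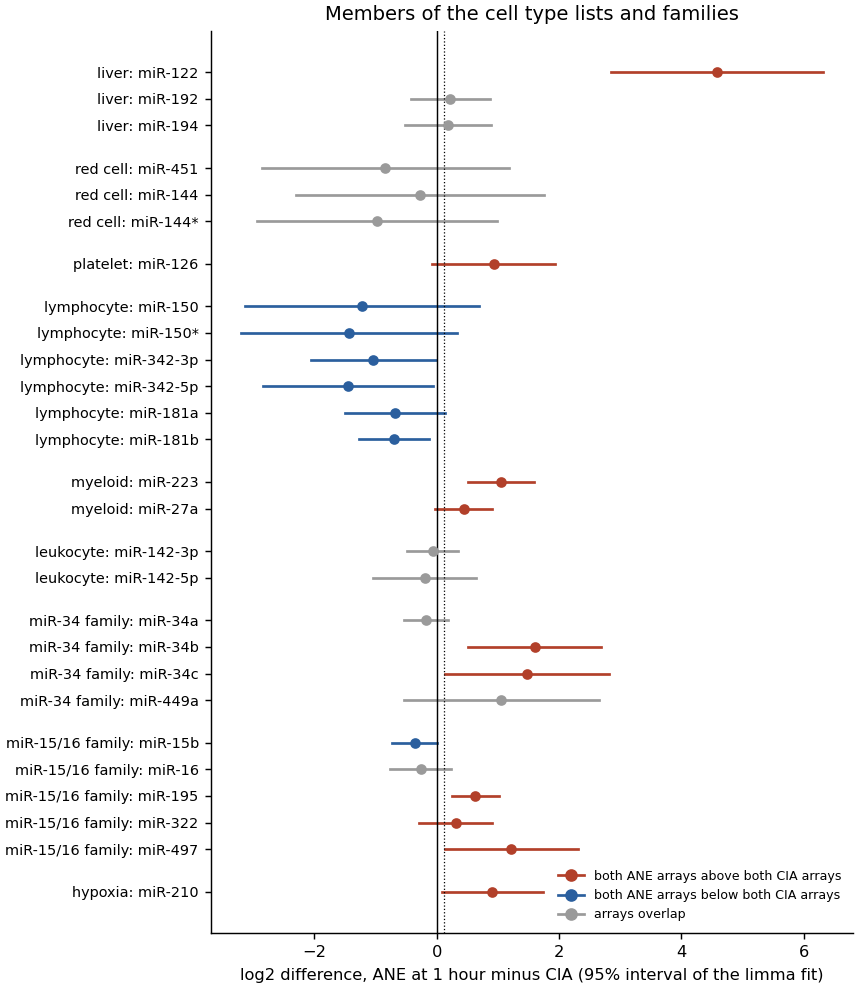
Log2 difference of ANE at 1 hour minus CIA for each measured member of the lists of cell types and families, with its 95% interval from the limma fit, the solid line at 0 and the dotted line at the median of all 210 miRNAs (0.11). All 6 lymphocyte miRNAs are below 0 and both myeloid miRNAs above it, while the 3 red cell miRNAs have wide intervals around 0.

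The red cell markers differed more between arrays of a group than between the groups. miR-451, the most abundant miRNA of red cells, was at 11.15 and 13.90 in ANE and at 14.68 and 12.05 in CIA. miR-144 was at 6.55 and 8.64 against 9.50 and 6.24, and miR-144* at 4.69 and 7.59 against 8.44 and 5.78. Each group thus held 1 array of low and 1 of high red cell signal, and the groups overlapped for all 3. With the mean of the 3 as a covariate, chosen after seeing the data, miR-122 was still called (adjusted p 0.0198), and 25 miRNAs had an unadjusted p under 0.05 in place of 38. Of the platelet list, only miR-126 was measured, at 7.26 and 6.56 against 6.07 and 5.89, a difference of 0.93 (SE 0.47). miR-142-3p and miR-142-5p, which mark white blood cells in general, overlapped between the groups, at 13.45 and 13.29 against 13.72 and 13.15 for miR-142-3p. All 6 members of the muscle list were detected on no array, as were miR-9, miR-9* and miR-124 of the neural list. miR-1*, which is not on the muscle list, was detected on 19 of the 24 arrays. Of the other neural members, miR-128 was higher without overlap, at 12.12 and 12.02 in ANE against 11.07 and 11.44 in CIA. Its difference was 0.82 (SE 0.34). miR-138 and miR-219-5p were detected on no array of either group. The part of these levels in the differences above was not tested beyond the covariate.

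Of the 9 measured miRNAs of the inflammation list, 2 were higher and 3 lower without overlap, where 36.2% and 19.0% of all miRNAs were, and none was called. The higher were miR-223 and miR-126, and the lower miR-150, miR-181a and miR-146a. All but miR-146a are also members of the cell type lists above, so this count largely repeats those lists. miR-146a, which restrains signalling by Toll-like receptors, was at 8.65 and 8.48 in ANE against 9.37 and 9.41 in CIA, a difference of -0.82 (SE 0.53). miR-21, which is induced in many inflamed tissues, was at 14.72 and 15.19 against 14.82 and 14.67 and overlapped. Of the 9 miRNAs of the clusters of miR-17 to miR-92a and of miR-106b, which promote proliferation, 4 were higher without overlap and 1 lower. These stand beside the same 36.2% and 19.0%. Their median of 0.23 ran from 0.11 to 0.70 over the other scalings. The 4 higher miRNAs were miR-17-5p, miR-18a, miR-19a and miR-20a. The lower miRNA was miR-25, while miR-106b and miR-93 of its cluster overlapped. miR-20a was at 12.23 and 12.27 against 11.75 and 11.78, and miR-25, from the miR-106b cluster, at 9.72 and 9.98 against 10.36 and 10.10, a difference of -0.38 that turned to 0.09 without scaling. The 8 let-7 miRNAs, which mark differentiated cells, had a median of 0.12, which ran from 0.0046 to 0.59 over the other scalings, and 6 were higher and 1 lower without overlap, again beside 36.2% and 19.0%. For the inflammation list, the median of -0.26 turned to 0.21 without scaling.

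Detection gave a second view. On both ANE arrays and no CIA array, 5 miRNAs were detected, and none was detected the other way round. Beside miR-122, these were miR-3584-5p, at 3.69 and 5.04 and at least 3.11-fold higher, miR-99b, at 3.73 and 3.09 and at least 1.61-fold higher, miR-125b-3p, at 3.95 and 2.69 and at least 1.51-fold higher, and miR-29c*, at 3.47 and 3.07 and at least 1.46-fold higher. These bounds rest on single arrays. Without the second ANE array miR-3584-5p was at least 1.96-fold higher and without the first at least 4.96-fold, and without the first ANE array miR-125b-3p had no fold above 1. Apart from miR-122 none was called, with adjusted p-values from 0.294 to 0.425 in limma, and all 4 were near the floor. In all, 163 and 190 miRNAs were detected on the ANE arrays against 157 and 170 on the CIA arrays, so these counts overlapped.

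Differences lay closer together within a locus than across loci. RefSeq hairpins were chained into a locus where they lay within 10 kb on 1 strand, and miRNAs detected on all 4 arrays and assigned to 1 locus were used. The 52 miRNAs that fell into loci with at least 2 members formed 21 loci, some of them the 2 arms of 1 hairpin. In 12 loci all members were above 0, in 6 all were below 0, and in 3 they were mixed, while without scaling these counts were 16, 1 and 4. The median gap between 2 members of a locus was 0.19 (log2, 50 pairs), against 0.67 between members of different loci (1276 pairs). Members of a locus are not independent, and this is given as a description. The 5 members used at the locus of miR-17, miR-18a, miR-19a and miR-20a on chromosome 15 lay between 0.37 and 0.61, and each was higher on both ANE arrays. miR-17-5p, miR-19b and miR-92a, of the clusters above, were not assigned to 1 locus and are left out of that range. Their differences were 0.63, 0.23 and 0.17, and the arrays of miR-19b and miR-92a overlapped between the groups. The 6 members of the locus of miR-362, miR-500, miR-532 and miR-188 on chromosome X lay between -0.79 and -0.21, and 5 of them were lower on both ANE arrays. The mixed loci were those of miR-652, of miR-25 with miR-93, and of miR-363 with miR-20b-5p.

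**Figure D4:**
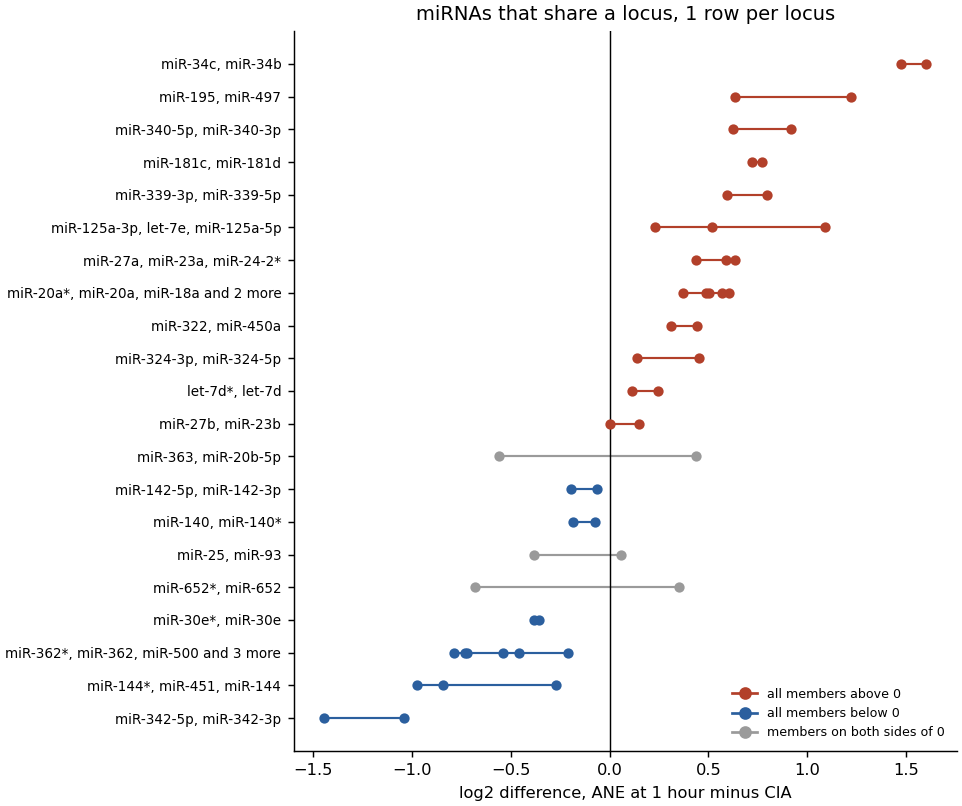
Log2 difference of ANE at 1 hour minus CIA for 52 miRNAs in 21 loci, 1 row per locus and 1 point per miRNA, with a line from the lowest to the highest member. The miR-34b and miR-34c locus is at the top, that of the miR-342 arms at the bottom, and 3 loci have members on both sides of 0.

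The place of both groups among the 12 was uneven for the miRNAs chosen by their difference. Of the 27 higher ones detected on all 4 arrays, CIA was the lowest of all groups for 17 and ANE at 1 hour the highest for 4, which were miR-223, miR-34b, miR-34c and miR-340-3p. For the 5 lower ones, CIA was the highest of all groups in 5 and ANE at 1 hour the lowest in 1, miR-532-3p. The other groups of slide 1 were above those of slide 2 for 25 of the 27 higher miRNAs. With each group set against the other groups of its slide, all 27 stayed above 0 and all 5 below 0. Of these, 7 and 1 had an unadjusted p under 0.05 in limma, where 11 of all 210 miRNAs did. They had been chosen by the same ANE and CIA arrays, so nothing is read from these counts. In that contrast miR-122 was called, with a difference of 6.31 in place of 4.58. The other groups of slide 1 had a mean of 2.78 for miR-122 and those of slide 2 of 4.50. The slide 2 mean includes NOCIA before therapy, the highest group for miR-122. For this miRNA the contrast thus cannot tell slide from group, and nothing is read from that call.

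The comparison with PLA at 1 hour addresses the anaesthetic at a single time and uses no CIA array. It also set slide 1 against slide 3, and PLA had been given saline injections. limma called 3 of 210 miRNAs (1.43%), all lower in ANE, and 20 had an unadjusted p under 0.05 (9.52%). The calls were 2 higher and 3 lower without scaling, 32 higher and 1 lower with the percentile over all miRNAs, 2 higher and 1 lower with quantile normalization, and 3 higher (miR-122, miR-34b and miR-34c) and 1 lower (miR-3544) with a doubled floor. miR-3544 was detected on neither ANE array and was at 4.86 and 4.78 in PLA, at least 4.90-fold lower in ANE. let-7b*, the passenger arm of let-7b, was detected on neither ANE array and was at 4.70 and 3.95 in PLA, at least 3.47-fold lower. Their fitted differences of -2.29 and -1.80 had adjusted p-values of 1.98e-05 and 0.00161 in limma. miR-298 was at the floor on both ANE arrays, 1 of which detected it, and at 4.61 and 3.99 in PLA (adjusted p 0.0113), a fitted difference of -1.78 that rests on the floor. Over the 24 arrays, miR-3544 was detected on 9, let-7b* on 11 and miR-298 on 15. Arrays at the floor add no spread to the estimate that limma shares over all groups. These 3 p-values thus rest on a spread made small by the floor. With only the arrays compared, none of the 3 was called. None of the 3 was called against CIA, and none was called when each group was set against the other groups of its slide.

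The miRNAs higher than CIA were not all higher than PLA. miR-122 was higher than in PLA by 3.22 (SE 0.81, adjusted p 0.0749), miR-34b by 1.90 (SE 0.51, adjusted p 0.0949), miR-34c by 2.21 (SE 0.62, adjusted p 0.117) and miR-223 by 0.67 (SE 0.25, adjusted p 0.335), and in each case both ANE arrays were above both PLA arrays. miR-34c was not detected on the second PLA array, so its difference rests on the floor there. miR-497 was at 5.87 and 6.54 in PLA, miR-125a-5p at 5.08 and 5.76 and miR-331 at 5.25 and 5.83, and these overlapped ANE. miR-342-3p was at 10.72 and 9.72 in PLA and miR-150 at 13.16 and 11.65, also overlapping ANE. Of the 27 higher miRNAs, 12 were above PLA without overlap, where 14.8% of all miRNAs were, and of the 5 lower ones 1 was below it, where 13.3% were. They had been chosen by values of the same ANE arrays, which both comparisons share, and nothing is read from these counts.

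Against ANE at 34 days, which shares the anaesthetic but not the slide, limma called 0 of 210 miRNAs (0%), with 15 at an unadjusted p under 0.05 (7.14%). Both ANE arrays at 1 hour lay above both at 34 days for 26.2% of all miRNAs and below them for 17.1%. Of the miRNAs higher than CIA, 22 of 27 did the first, and of the lower ones 3 of 5 the second, but they were chosen by the same ANE arrays at 1 hour, and ANE at 34 days lies on the slide of CIA, so nothing is read from these counts. miR-122 was detected on 1 of the 2 arrays at 34 days, at 3.92, and was 3.97 higher at 1 hour (SE 0.81, adjusted p 0.0515). miR-34b was at 3.60 and 3.86 at 34 days and 2.10 higher at 1 hour (SE 0.51, adjusted p 0.109). miR-34c was detected at 3.67 on 1 array at 34 days and was 2.30 higher at 1 hour (SE 0.62, adjusted p 0.131), and for miR-122 and miR-34c the undetected array was at the floor. miR-223 was at 12.74 and 12.55 at 34 days, 0.84 lower than at 1 hour (SE 0.25, adjusted p 0.193). For all 4, the arrays at 1 hour were above those at 34 days. miR-484 was at 6.96 and 7.07 at 34 days, within the range of the ANE arrays at 1 hour.

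**Figure D5:**
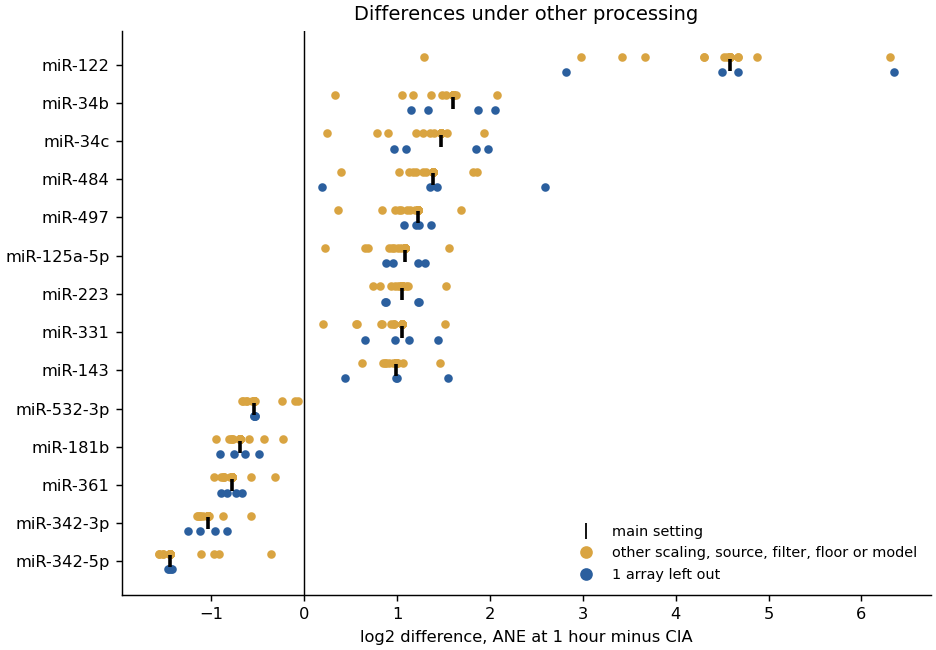
Log2 difference of ANE at 1 hour minus CIA for 14 miRNAs under the main setting (black bar), under other scalings, sources, filters, floors and models (yellow) and with 1 of the 4 arrays left out (blue). No point crosses 0, and miR-484 runs from 0.19 to 2.60 as the ANE arrays are left out in turn.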

How the data were processed

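PBMC RNA was extracted with a column kit, labelled with Cy3 and hybridised to one-colour Agilent rat miRNA arrays. Per the file headers, images were read with Agilent Feature Extraction, which wrote background-corrected linear intensity values and a detection flag, not normalised between arrays. The 12046 values of undetected miRNAs equalled their listed error within a relative tolerance of 1e-06. The authors also deposited a table of log2 values, used as an alternative. The other deposited columns were flags (unit: other). Total intensity per miRNA was scaled to a common 75th percentile over the 132 miRNAs detected on all 24 arrays, floored at 5.76 (2.53 in log2) and logged. One limma 3.58.1 model (R 4.3.3) covered the whole series, with a mean for each of 12 groups and 12 residual degrees of freedom, two-sided tests, Benjamini-Hochberg adjustment over 210 miRNAs, and a call at an adjusted p under 0.05. The number of arrays limits the precision. Replicates correlated at 0.967 in ANE at 1 hour and 0.982 in CIA over 132 miRNAs. The fit was also run on simulated normal values with known changes. These held no slide effect, floor or scaling, so the run does not bear on those.

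Named were the calls, those past the study's threshold, the 8 largest differences in each direction (unadjusted p under 0.05, all 4 arrays detecting), miRNAs detected in 1 group only, and members of 14 lists. Others are named where a locus or a count rests on them and were chosen after their values were seen. Members, lists and tests were chosen with earlier results of these data known. The array does not list miR-155, miR-486 or miR-424 under these names. For an "at least" fold, undetected arrays were set to their weakest detected signal, or to the miRNA's own value if that was higher, before group means were compared. The red cell covariate and the crossed pairing were added after seeing the data. No deposited column held the authors' comparisons.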

Additional observations from a re-analysis of the deposited data

Results flagged for a closer look

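ANE and PLA at 1 hour can each be set against the same CIA arrays, and the difference between the 2 arms was itself tested in limma. For 3 miRNAs it passed the adjustment. The fitted ANE minus PLA was -2.29 for miR-3544, -1.80 for let-7b* and -1.78 for miR-298 on the log2 scale. All 3 were at the floor on both ANE arrays, so these are no measured sizes, and for the first pair, undetected there, the bounds are at least 4.90-fold and at least 3.47-fold lower. Beside these values, the 3 miRNAs were at means of 4.77, 4.43 and 4.58 in NOCIA at 1 hour and of 4.86, 4.63 and 4.76 in MTX at 1 hour, both on the slide of PLA, and at 3.47, 2.90 and 3.04 in MS at 1 hour on that slide. In MS, MTX and PLA at 34 days, on the slide of ANE at 1 hour, their means lay between 2.53 and 2.72. Arrays at the floor also add no spread to the estimate that limma shares. None of the 3 was called with each group set against the other groups of its slide, or with only the arrays compared.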

How the results depend on the processing

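With 2 arrays a group, on different slides, 1 array can set a count. In ANE at 1 hour against CIA, 0 miRNAs were called with the percentile over all miRNAs, the mean spot signal, normexp, the deposited log2 table, no filter or only miRNAs detected on all arrays compared, and 2 with a doubled floor (miR-122 and miR-378*) or array weights (miR-122 and miR-223), beside 1. With only the arrays compared the 1 call was miR-342-5p. miR-122 was not tested among miRNAs detected on all arrays compared, as neither CIA array detected it. miR-122 against CIA stayed above 0 in every alternative run, with adjusted p-values from 1.23e-05 to 0.210. Past the study's threshold there were 2 miRNAs with the percentile over all miRNAs, 3 with quantile normalization, 2 with normexp, 3 against the other groups of each slide and 5 with the red cell covariate, beside 9. Against PLA there were 5 calls without scaling (2 higher), 33 (32 higher) with the percentile over all miRNAs, 1 with the mean spot signal (miR-203, lower), 0 with normexp, the deposited table, miRNAs detected on all arrays compared or only the arrays compared, and 1 (miR-34b, higher) against the groups of each slide, beside 3. Against ANE at 34 days there were 3 calls without scaling or with a doubled floor (miR-122, miR-34b and miR-34c) and 1 (miR-122) with array weights, with trend and robust, or against the groups of each slide, beside 0.

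Leaving out 1 array at a time gave 0 to 3 calls against CIA (3 without the second ANE array, 2 without the first, 0 without the second CIA array, and 1, miR-3544, without the first), 3 to 15 past the study's threshold (15 without the second ANE array, 3 without the first or without the first CIA array), 2 to 7 calls against PLA (7 without the second ANE array, 5 without the first PLA array) and 0 to 2 against ANE at 34 days. Of 70 differences followed, 28 turned sign or reached 0 under at least 1 alternative, among them miR-15b, miR-16, miR-25, miR-34a and miR-144, and 1 of the 28 was a call. With the mean spot signal miR-29c* was at -0.34 and miR-125b-3p at -0.22, and with the deposited table the ANE minus PLA difference of miR-298, the call, was 0.0076. The causes were not tested. With the replicate block the counts were 1, 3 and 0 calls and the calls did not change. Same-numbered arrays deviated with r = -0.55 in ANE and CIA and r = -0.28 in ANE and PLA, and with the numbers crossed, an alternative added after seeing the data, there were 1 and 3 calls.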
